A study of Mus musculus with 16 samples.

Results

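The genes described here are 8 genes of the satellite glia and Schwann cell lineage, *Sox10*, *Fabp7*, *Erbb3*, *Apoe*, *Ednrb*, *Sostdc1*, *Mbp* and *Ttyh1*, of 49671 genes counted. They were chosen by name, with earlier results of these data known, although the rule itself used none of their values. They were followed in all wells with at least 5000 unique molecular identifiers (UMIs, tags that count each captured mRNA molecule once), which left 1313 of 1536 wells. The wells came from mouse dorsal root ganglia, and each was meant to hold a single proprioceptive sensory neuron, the neuron type that reports muscle stretch and load. Transcripts were counted by CEL-Seq2, a method that tags the 3′ end of mRNA in each well of a plate. The embryonic group, e15.5, had 10 libraries of sorted wells from the PvtdTom strain, in which a bacterial artificial chromosome carries tdTomato under the parvalbumin promoter. The postnatal group, p1, had 6 libraries labelled for both *Trpv1Cre; PvFlp; Ai65* and *PvCre; Ai14*, 2 recombinase designs that switch on a tdTomato reporter. Which p1 library came from which line, and the axial level of any library, are not given in the labels. Age, mouse line and the way wells were isolated therefore cannot be told apart, and nothing says that libraries were separate animals, so the p-values measure only the spread between libraries.

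Satellite glia wrap the cell bodies of sensory neurons inside the ganglion, and Schwann cells cover and myelinate their axons. Both arise from neural crest cells through a shared precursor that is kept by the transcription factor *Sox10* and by neuregulin signals received through *Erbb3*. Most of these transcripts are known from glia and not from neurons. In summed wells, fewer glial cells and less RNA per glial cell cannot be told apart, so counts of wells are given beside the sums.

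The genes were matched by Ensembl identifier to GENCODE M21 on GRCm38. *Sox10* (ENSMUSG00000033006) lies on chromosome 15 at 79154908 to 79165240, and *Fabp7* (ENSMUSG00000019874), the brain fatty acid binding protein of immature and satellite glia, on chromosome 10 at 57784881 to 57788450. *Erbb3* (ENSMUSG00000018166) is on chromosome 10 at 128567523 to 128589652, *Ednrb* (ENSMUSG00000022122), the endothelin receptor type B, on chromosome 14 at 103814625 to 103844402, and *Sostdc1* (ENSMUSG00000036169), a secreted antagonist of BMP and Wnt signals, on chromosome 12 at 36314139 to 36318452. *Apoe* (ENSMUSG00000002985), the lipid carrier apolipoprotein E, at 19696109 to 19699188, and *Ttyh1* (ENSMUSG00000030428), a membrane protein of the tweety family, at 4119408 to 4136708, share chromosome 7. *Ttyh1* overlaps the antisense gene *9430041J12Rik*, which had 97 UMIs in the kept wells against 7054 for *Ttyh1*.

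Because the genes were found together in wells, the 250 bases before the transcription start were read from the RefSeq promoter table of GRCm38.p6, which held *Apoe*, *Fabp7*, *Ednrb* and *Ttyh1* among the 8. The *Apoe* window is shown because it was the one of the 4 genes with a match. Capitals mark matches to 8 written forms of the SOX core, namely AACAAAG together with AACAATG, then ATCAAAG together with ATCAATG, then TACAAAG together with TACAATG, and finally TTCAAAG together with TTCAATG, searched on both strands, none of which overlapped another match here.
*Apoe*, chr7:19699189-19699438, minus strand: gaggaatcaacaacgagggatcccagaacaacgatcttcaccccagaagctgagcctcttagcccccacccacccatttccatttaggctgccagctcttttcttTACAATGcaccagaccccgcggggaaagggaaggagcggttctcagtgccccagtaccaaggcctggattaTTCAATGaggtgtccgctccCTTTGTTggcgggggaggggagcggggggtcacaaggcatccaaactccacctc

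The *Apoe* window before its first start held 3 matches, at 145, 74 and 54 bases before the start. The *Fabp7*, *Ednrb* and *Ttyh1* windows and those before the later *Apoe* starts held 0, but the *Ednrb* start used lies 701 bases inside the GENCODE gene. Over all 32851 promoter windows, 21.8% held at least 1 match and 0.396% held at least 3. A match describes letters only.

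The kept wells were 899 of 960 at e15.5 and 414 of 576 at p1, with 3668760 to 9295409 kept UMIs per e15.5 library and 293340 to 8787355 per p1 library. *Etv1*, the ETS transcription factor that proprioceptors need, split the wells into *Etv1*-high (at least 300 counts per 1000000 UMIs, CPM) and *Etv1*-low. At e15.5 the label of proprioceptive neuron held for fewer than all wells, since 544 of 899 were *Etv1*-low, and 416 of these were collagen-high (*Col1a1*, *Col1a2* and *Col3a1* together at 1000 CPM or more). At p1 15 of 414 wells were *Etv1*-low. *Etv1* itself stood at 2003 ± 107 CPM in *Etv1*-high wells at e15.5 and 1653 ± 475 CPM at p1 (SD over 10 and 6 libraries). The 16 libraries share 96 well numbers, and 0 wells held identical counts. *Etv1*-high wells had a median of 109763 UMIs at e15.5 and 45544 at p1, and *Etv1*-low wells had 26727 at e15.5. Levels are therefore given as CPM of the summed UMIs per library, and shares of wells also after each well was thinned to 5000 UMIs.

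In *Etv1*-high wells *Sox10*, *Ednrb* and *Ttyh1* were lower at p1 than at e15.5, and the other 5 genes did not pass the test. At e15.5 the *Sox10* level per library was 10.955 CPM at the lowest, 29.2 at the median and 37.0 at the highest. At p1 the lowest was 1.32, the median 8.48 and the highest 12.95 CPM. In 5 of 6 p1 libraries the level was under that of every e15.5 library, and the ranges overlapped through e15.5 library 10 and p1 library 6 alone. The p1 value of library 3 rested on 2 UMIs in 225920. *Sox10* fell by 1.69 on the log2 scale (SE 0.35, Benjamini-Hochberg adjusted p = 0.000315 from the quasi-likelihood F test of edgeR, 10 against 6 libraries), a 3.23-fold lower level, and the call held without any 1 of the 16 libraries.

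**Figure D1:**
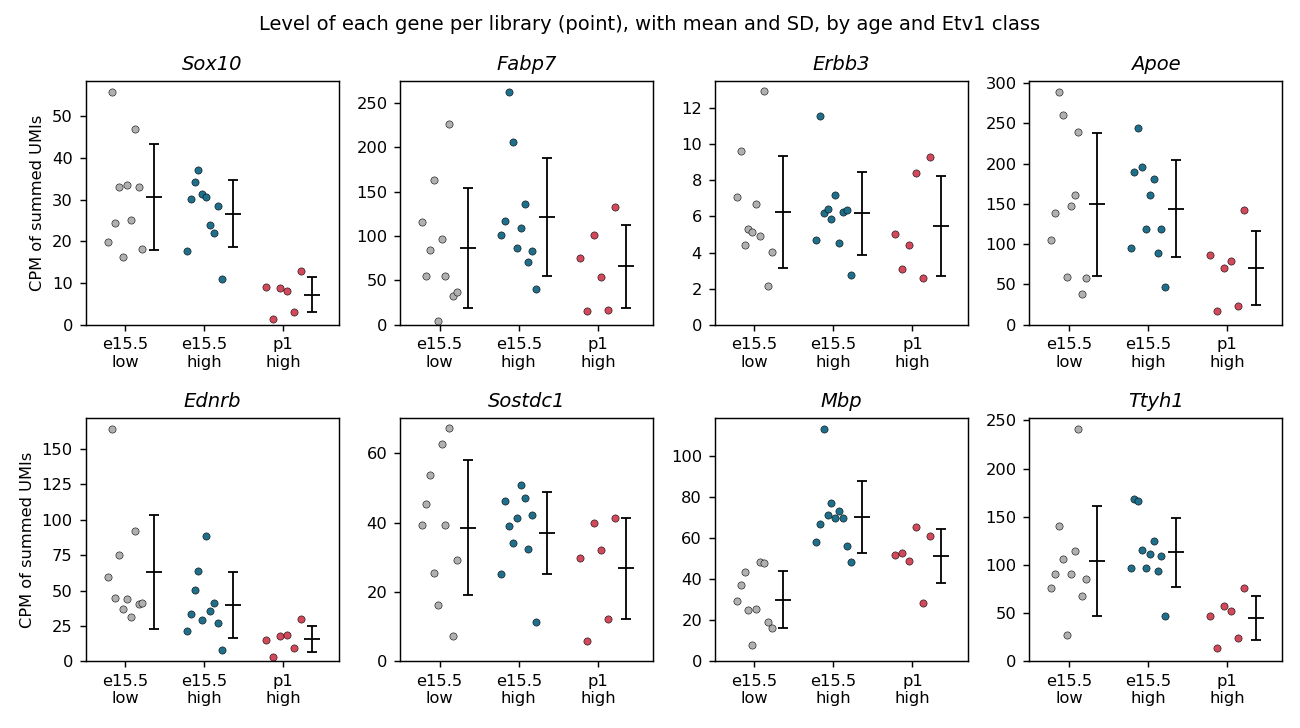
Each point is 1 library with at least 5 wells of the class, the vertical axis is the CPM of its summed UMIs, and the dash with its bar is the mean with the SD (grey, e15.5 *Etv1*-low, n = 10; blue, e15.5 *Etv1*-high, n = 10; red, p1 *Etv1*-high, n = 6). The red *Sox10* points sit between 1.32 and 12.95 CPM, and in the *Mbp* panel all blue points lie above all grey points.

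Of the receptors, *Ednrb* binds endothelins and acts in the timing of Schwann cell maturation. Its *Etv1*-high level ran from 7.95 over a median of 34.5 to 88.7 CPM at e15.5 and from 3.37 over 16.2 to 30.0 CPM at p1. The ranges overlapped widely, and only 1 p1 library was below all of e15.5. *Ednrb* fell by 1.098 on the log2 scale (SE 0.43, adjusted p = 0.0326 by edgeR). This call ended without e15.5 library 4 or 6 or without p1 library 1, 2 or 5, with an adjusted p of up to 0.0885. *Erbb3*, the neuregulin receptor subunit of the lineage, stood at 6.17 ± 2.29 CPM at e15.5 (SD, n = 10) and 5.47 ± 2.79 CPM at p1 (SD, n = 6). Its fitted log2 difference was 0.11 (SE 0.30, adjusted p = 0.779 by edgeR), opposite in sign to the difference of these means, and -0.12 when scaled by plain library totals, so no direction is given, and the ranges overlapped in all but 1 p1 library.

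*Ttyh1*, the tweety family membrane protein, ran from 46.8 over 110 to 169 CPM in *Etv1*-high wells at e15.5. At p1 it ran from 13.6 over 49.7 to 76.1 CPM. Libraries 2 and 5 were below all of e15.5 and the other 4 p1 libraries were within its range. *Ttyh1* fell by 1.15 on the log2 scale (SE 0.30, adjusted p = 0.00236 by edgeR), with the call kept without any 1 library.

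The lipid-handling genes *Apoe* and *Fabp7* did not pass. *Apoe* had a mean of 144 ± 60.1 CPM at e15.5 (SD, n = 10) and 70.1 ± 45.8 CPM at p1 (SD, n = 6), with a log2 difference of -0.80 (SE 0.38, adjusted p = 0.0742 by edgeR). *Fabp7* had 121 ± 66.4 CPM at e15.5 and 66.1 ± 46.7 CPM at p1, and a log2 difference of -0.72 (SE 0.43, adjusted p = 0.145 by edgeR). For both genes p1 libraries 2 and 5 lay under all e15.5 libraries, and the other 4 lay among them. Without p1 library 6, the highest for both, each passed (adjusted p = 0.0147 for *Apoe* and 0.0280 for *Fabp7* by edgeR), and *Apoe* also passed without e15.5 library 10.

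The secreted antagonist *Sostdc1* and the myelin gene *Mbp* did not pass either. *Sostdc1* was at 37.0 ± 11.8 CPM at e15.5 and 26.9 ± 14.6 CPM at p1 (log2 difference -0.33, SE 0.34, adjusted p = 0.402 by edgeR). *Mbp* was at 70.4 ± 17.4 CPM at e15.5 and 51.3 ± 12.9 CPM at p1 (log2 difference -0.19, SE 0.17, adjusted p = 0.337 by edgeR). In both, 1 p1 library was below all of e15.5.

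The fall of 3 of 8 genes is read against the background of the same test, in which 32% of 14025 genes were called lower at p1, 30.7% higher and 62.7% in either direction. The share of the 8 genes called lower is near that background and is no result about the list. The median log2 difference of the 8 was -0.76 and that of all genes -0.03. The fit scales libraries by TMM, which sets the bulk of genes near equal, while CPM uses plain library totals. With plain totals, an alternative added after the data were seen, the median of all genes was -0.27, 44.3% of genes were called lower and 21.7% higher, and 5 of the 8 were lower, *Apoe* (log2 difference -1.02, adjusted p = 0.0270) and *Mbp* (-0.43, adjusted p = 0.0348, both by edgeR) in addition. With *Etv1*-high drawn at 1000 CPM, *Sox10* alone kept its call (log2 difference -1.096, adjusted p = 0.0260), *Ednrb* came to -0.46 (adjusted p = 0.371) and *Ttyh1* to -0.53 (adjusted p = 0.239, all by edgeR).

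E15.5 library 10 had the lowest *Etv1*-high level for 8 of 8 genes, with their sum at 216 CPM, and library 3 had the highest sum at 916 CPM, but it was highest for only 3 genes, libraries 2 and 6 for 2 each and library 4 for 1. At p1, library 2 was lowest for 6 genes and library 5 for 2, with sums of 113 and 120 CPM, while library 6 was highest for 7 and reached 505 CPM. *Apoe* made up 25.2% ± 2.695 of the UMIs of the 8 genes at e15.5 and 22.6% ± 4.89 at p1, *Fabp7* 20.8% ± 4.59 and 20.6% ± 6.60, and *Sox10* 4.89% ± 0.877 and 2.36% ± 0.601 (SD over 10 and 6 libraries).

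With all wells of at least 5000 UMIs, whatever their *Etv1* level, the same test gave 3 genes lower at p1, *Sox10*, *Ednrb* and *Ttyh1*, with 32.6% of 15453 genes called lower, 26.9% higher and 59.5% in either direction (44.2% lower and 19.5% higher with plain totals, where *Apoe* also passed). The log2 differences were -1.77 for *Sox10* (SE 0.38, adjusted p = 0.000771), -1.38 for *Ednrb* (SE 0.43, adjusted p = 0.0115) and -1.06 for *Ttyh1* (SE 0.30, adjusted p = 0.00550), all by edgeR. All 3 calls held without any 1 library. The e15.5 sums here also hold connective tissue wells, and the connective tissue list of 7 genes ran from 276 to 16915 CPM per e15.5 library against 108 to 1865 at p1. *Ednrb* and *Ttyh1* lost their calls under the study's quantile filters (adjusted p = 0.0983 and 0.0616).

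Other genes of the lineage moved in both directions. Of 23 further glia genes, the panel, 18 passed the filter on low counts in *Etv1*-high wells. At p1 8 were higher, 3 lower and 7 not called, with a median log2 difference of 0.49. Over all genes of that test 30.7% were called higher and 32% lower. With plain totals 6 were higher and 3 lower, against 21.7% and 44.3% of all genes, and the median of the panel was 0.26. Among the myelin genes of the panel *Pmp22*, a peripheral myelin protein, rose (log2 difference 1.08, SE 0.30, adjusted p = 0.00418), as did *Prx*, periaxin (1.16, SE 0.47, adjusted p = 0.0369), both by edgeR. Both were named after their values were seen. *Prx* did not pass without some single libraries, with an adjusted p of up to 0.0995, or with plain totals (adjusted p = 0.0906 by edgeR). The panel genes with the smallest adjusted p were *Cnp*, a phosphodiesterase abundant in myelinating cells (fell by 1.19 on the log2 scale, adjusted p = 2.09e-06), *Ptprz1*, a receptor phosphatase (log2 difference 0.89, adjusted p = 3.54e-05), and *Ngfr*, the p75 neurotrophin receptor of neurons and glia (fell by 0.67, adjusted p = 0.000577). In all wells 4 of the 23 were higher and 9 lower, and the smallest were those of *Ednra* (fell by 2.67 on the log2 scale, adjusted p = 0.000589), *Ptprz1* (0.85, adjusted p = 0.00120) and *Edn3* (fell by 5.08, adjusted p = 0.00183), by edgeR. *Ednra* and *Edn3* did not pass the filter in *Etv1*-high wells. From *Etv1*-high to all wells the log2 difference of *Egr2* went from 1.55 to -1.91 and that of *Slc1a3* from 1.505 to -1.32, all called. *Pmp22* went from 1.08 to -0.52, which was not called. At e15.5 *Ednra*, *Egr2*, *Slc1a3* and *Pmp22* were lower in *Etv1*-high than in *Etv1*-low wells. The part of connective tissue wells in these values was not tested.

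**Figure D2:**
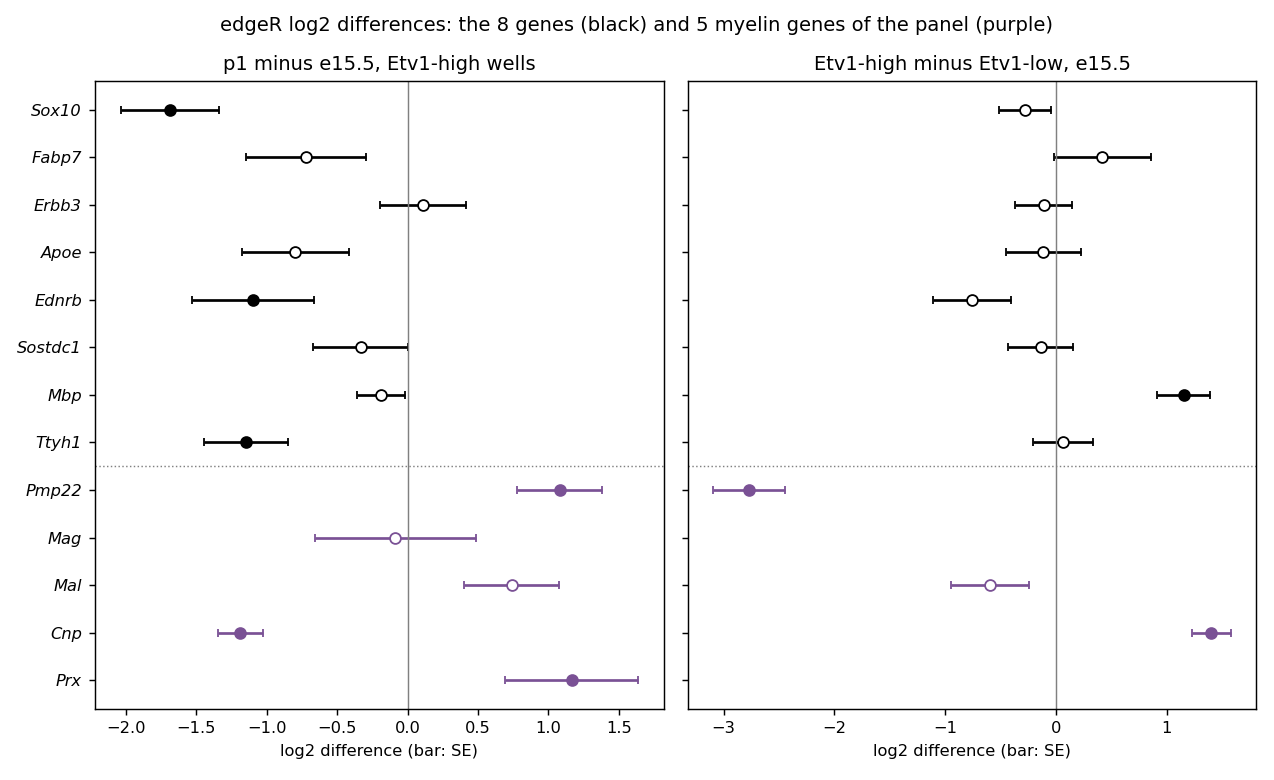
Points are log2 differences from edgeR with bars for the SE, and a filled point has an adjusted p below 0.05. Left, p1 minus e15.5 in *Etv1*-high wells: *Sox10*, *Ednrb* and *Ttyh1* are filled and negative, as is *Cnp* of the myelin genes, at -1.19. *Pmp22* and *Prx* are filled and positive (*Prx* did not pass with plain library totals), and *Mag* and *Mal* are open. Right, *Etv1*-high minus *Etv1*-low at e15.5: *Mbp* alone of the 8 genes is filled, at 1.15, and *Mag* and *Prx* were not tested.

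The level in wells with and without high *Etv1* asks whether these transcripts belonged to the neuron wells. At e15.5 only *Mbp* passed the test. In *Etv1*-high wells its level ran from 48.4 over a median of 69.8 to 113 CPM, and in *Etv1*-low wells from 8.11 over 27.6 to 48.1 CPM. Each of the 10 libraries was higher in its *Etv1*-high wells, and the 2 sets did not overlap, although the nearest values were 48.4 and 48.1 CPM. *Mbp* was 2.22-fold higher in *Etv1*-high wells (log2 difference 1.15, SE 0.24, adjusted p = 0.000314 by edgeR), and with the library as a block the adjusted p was 0.000412. In this test 30.5% of 12657 genes were called higher, 33.8% lower and 64.3% in either direction, against 1 of the 8 genes.

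For the other 7 genes the sets overlapped. *Ednrb* was the next in size, with 34.5 CPM at the median in *Etv1*-high and 44.4 CPM in *Etv1*-low wells and a log2 difference of -0.76 (SE 0.36, adjusted p = 0.0674 by edgeR), higher in *Etv1*-low wells in 7 of 10 libraries. *Fabp7* was at 105 and 69.6 CPM (log2 difference 0.42, SE 0.44, adjusted p = 0.409) and *Sox10* at 29.2 and 29.0 CPM (-0.28, SE 0.24, adjusted p = 0.306). *Apoe*, *Ttyh1*, *Erbb3* and *Sostdc1* had log2 differences from -0.14 to 0.07 with adjusted p of at least 0.693. A p that misses the threshold does not show equal levels, and these SEs ran from 0.26 to 0.34.

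*Etv1*-low wells were of 2 kinds. In collagen-high wells *Sox10* was at 33.2 ± 13.5 CPM, *Apoe* at 217 ± 117 CPM and *Ednrb* at 86.8 ± 54.5 CPM (SD, n = 9 libraries). These levels lay in few wells. The 27 of 416 collagen-high wells with 4 to 8 of the genes after thinning held the 8 genes at 8633 CPM in sum, and the 276 wells with none held them at 45.6 CPM. Their connective tissue list was at 3313 CPM in the median well against 31706 CPM in wells with none, and their 23 panel genes at 4790 against 760 CPM in sum, so collagen-high does not name a single kind of well. In collagen-low wells, where the sensory neuron list of 5 genes ran from 2984 to 6020 CPM, *Sox10*, *Apoe* and *Ednrb* were at 18.5 ± 23.1, 61.8 ± 84.9 and 27.0 ± 41.5 CPM (SD, n = 7 libraries). The range of the neuron list is of sums. In the 79 collagen-low wells with none of the 8 genes it was at 5071 CPM in sum and 1479.5 CPM in the median well. The blood list reached 23522 CPM in 1 library of collagen-low wells, and its part in the values was not tested. Tested against collagen-high wells alone, an alternative added after the data were seen, *Apoe* and *Ednrb* were also lower in *Etv1*-high wells (log2 differences -0.70 and -1.21, adjusted p = 0.0265 and 0.00478 by edgeR), where 39.1% of 12279 genes were called lower. The part of the 27 wells in this contrast was not tested. Against collagen-low wells *Mbp* alone was called (1.32, adjusted p = 0.00196 by edgeR), where 13.1% of 11557 genes were called higher. Only 9 and 7 libraries had enough wells of the collagen-high and collagen-low kind.

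The place of the *Etv1* limit changed these calls. With the limit at 1000 CPM, 6 of 8 genes were lower in *Etv1*-high than in the remaining wells by edgeR, against 34.1% of 12742 genes called lower in that fit, with log2 differences of -1.84 for *Ednrb*, -1.37 for *Apoe*, -1.34 for *Sox10*, -1.32 for *Sostdc1*, -1.31 for *Erbb3* and -1.14 for *Ttyh1*. *Mbp* was no longer called (0.26, adjusted p = 0.271). Between the limits lay 38 e15.5 wells with 300 to 1000 CPM of *Etv1*. There *Sox10* reached 123 CPM against 16.8 CPM in the 317 wells of 1000 CPM or more, *Fabp7* 479 against 65.2 CPM, *Apoe* 676 against 77.1 CPM and *Ttyh1* 527 against 68.3 CPM. In all 9 libraries with at least 3 wells in both bands the summed level of the 8 genes was higher in the 300 to 1000 band, where it ran from 820 to 13918.5 CPM against 162 to 552 CPM. The 38 wells had a median of 31462 UMIs against 115187, and 14 of them were collagen-high against 16 of the 317, and the part of depth and of these transcripts in the result was not tested. At p1 the same bands did not separate, with *Sox10* at 6.14 CPM in 111 wells and 6.84 CPM in 288, *Apoe* at 68.3 and 67.7 CPM, and the sum higher in the 300 to 1000 band in 2 of 6 libraries.

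**Figure D3:**
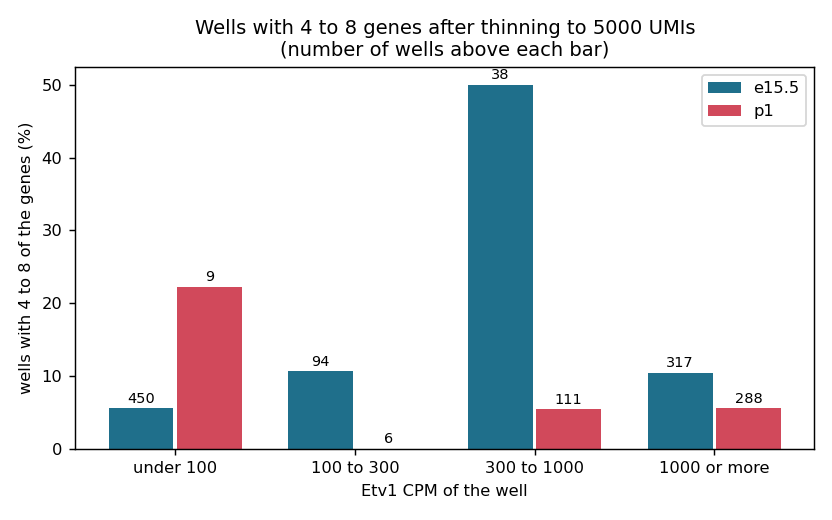
Bars give the percent of wells with a UMI of at least 4 of the 8 genes after thinning to 5000 UMIs, by the *Etv1* CPM of the well (blue, e15.5; red, p1), with the number of wells above each bar. The e15.5 bar for 300 to 1000 CPM stands at 50.0% and its neighbour for 1000 CPM or more at 10.4%, while the p1 bars of the same bands stand at 5.41% and 5.56%.

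At p1 only library 6 had at least 5 *Etv1*-low wells, so there was no test. In its 6 *Etv1*-low wells *Mbp* was at 580 CPM (60 UMIs, exact Poisson interval 443 to 747 CPM, which covers counting error only) against 60.9 CPM in 65 *Etv1*-high wells. *Erbb3* was at 106 CPM (11 UMIs, 53.1 to 190 CPM) against 9.32 CPM. Of these wells 2 carried most of the signal, with 10072 and 8559 UMIs, collagen at 17176 and 16357 CPM and 32 and 21 UMIs of *Mbp*. *Fabp7* had 0 UMIs in both.

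The question of whether the 8 transcripts came together was asked well by well. After thinning, 205 of 355 *Etv1*-high wells at e15.5 (57.7%, exact binomial interval 52.4% to 62.9%) held none of the 8, and 52 (14.6%, 11.1% to 18.8%) held 4 to 8. At p1 224 of 399 (56.1%, 51.1% to 61.1%) held none and 22 (5.51%, 3.49% to 8.23%) held 4 to 8. The intervals for none overlapped. Wells with 2 to 3 of the genes numbered 52 at p1 (13.03%, 9.89% to 16.7%) and 23 at e15.5 (6.48%, 4.15% to 9.56%). These intervals cover counting error only. Over libraries the share with 4 to 8 ran from 6.94% to 27.3% at e15.5 and from 1.33% to 12.3% at p1, so the ages overlapped. In *Etv1*-low wells at e15.5 35 of 544 (6.43%) held 4 to 8, and in collagen-high ones 27 of 416 (6.49%).

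In the 52 e15.5 wells with 4 to 8 of the genes *Sox10* was at 181 CPM, *Fabp7* at 708, *Apoe* at 890, *Ttyh1* at 765, *Sostdc1* at 275, *Ednrb* at 245, *Mbp* at 242 and *Erbb3* at 42.6 CPM. In the 22 such p1 wells *Sox10* was at 34.3 CPM, *Fabp7* at 366, *Apoe* at 375, *Ttyh1* at 198, *Sostdc1* at 130, *Ednrb* at 80.4, *Mbp* at 103 and *Erbb3* at 29.2 CPM. All 8 values were lower in the p1 wells, a description with no test because the genes chose the wells. Panel genes did not choose these wells. From wells with none of the 8 to wells with 4 to 8 at e15.5, the 4 regulators (*Sox2*, *Foxd3*, *Pou3f1* and *Egr2*, transcription factors of the lineage) summed to 1.52 and 99.2 CPM, and the 6 satellite glia genes to 58.0 and 469 CPM. At p1 the regulators summed to 5.01 and 100.03 CPM and the satellite glia genes to 93.5 and 344 CPM. The 6 signalling genes of the panel were not higher there, with 848 and 775 CPM at e15.5 and 615 and 604 CPM at p1. This list holds *Ngfr*, of neurons and glia, and *Nrg1*, which was higher in *Etv1*-high wells at e15.5 (log2 difference 2.63, adjusted p = 2.52e-05 by edgeR). Its sum therefore does not separate neuron from glial transcripts.

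These wells still carried neuron transcripts. At e15.5 the proprioceptor list (*Pvalb*, *Runx3*, *Etv1* and *Ntrk3*) summed to 3465 CPM in wells with 4 to 8 of the genes and 4449 CPM in wells with none, and the sensory neuron list to 4573 and 5760 CPM. At p1 the same lists summed to 3521 and 3955 CPM and to 4143 and 4350 CPM. In the median well the proprioceptor list was at 2516 against 4541 CPM at e15.5 and at 3163 against 3522 CPM at p1. Markers of other cell types differed between these wells too. In sum at e15.5 the connective tissue list went from 119 to 652 CPM and the cycling list from 59.9 to 262 CPM. The summed macrophage list went from 6.51 to 30.2 CPM and the nociceptor list from 139 to 212 CPM. The blood list went from 56.4 to 37.5 CPM and the endothelial list from 3.77 to 4.03 CPM, with *Cdh5* and *Cldn5* at 0 in both. At p1 the connective tissue list went from 155 to 390 CPM. In the median well the connective tissue list went from 79.8 to 828 CPM at e15.5 and from 9.24 to 242 CPM at p1. For the nociceptor and blood lists the median e15.5 well moved against the sum, from 53.9 to 18.7 CPM and from 11.97 to 22.2 CPM. The cycling list went from 55.8 to 74.8 CPM in the median e15.5 well, and the macrophage list was at 0 CPM in both. The wells with 4 to 8 genes had a median of 46344.5 UMIs against 121009 in wells with none at e15.5, and 73124 against 50733.5 at p1. Wells with at least 5 UMIs each of *Xist* and of Y-linked genes numbered 3 of 52 and 1 of 205 at e15.5. The part of depth, of connective tissue RNA and of wells with more than 1 cell in these counts was not tested.

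The UMIs were gathered in few wells. In the tenth of *Etv1*-high wells with the most of each gene lay, at the median over e15.5 libraries, 82.0% of *Fabp7* UMIs, 81.9% of *Sostdc1*, 80.7% of *Ednrb* and 74.8% of *Sox10* UMIs, but 38.7% of *Mbp* UMIs. For *Etv1* the figure was 27.4% and for *Avil*, a sensory neuron gene, 27.8%. At p1 it was 94.2% for *Sox10*, 65.2% for *Ttyh1* and 49.9% for *Mbp*, against 39.7% for *Etv1* and 50.4% for *Avil*. A gene with few UMIs reaches a high share by its count alone, as in p1 library 2, where *Sox10* had 9 UMIs in 8 of 84 wells. Shares were not matched for count, so the p1 value of *Sox10* is no measure of concentration. At e15.5 the value of *Mbp* lay between those of the other 7 genes and those of the neuron genes. Over all kept wells of both ages *Fabp7*, *Apoe* and *Ttyh1* had more UMIs than *Mbp* (7013, 9769 and 7054 against 4638).

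*Mbp* (ENSMUSG00000041607), myelin basic protein, spans 82475146 to 82585637 on chromosome 18. The processed pseudogene *Rpl21-ps8* lies inside *Mbp* on the opposite strand and had 19382 UMIs in the kept wells against 4638 for *Mbp*. No source read for this report states if counting used strand, and the *Mbp* locus also makes golli transcripts that are not myelin protein messages, so the *Mbp* count is of the locus and not of 1 product.

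*Mbp* set itself apart by the share of UMIs in its richest wells and by its presence in wells without the rest. In *Etv1*-high wells with none of the other 7 genes after thinning, *Mbp* stood at 40.9 CPM at e15.5 (258 wells) and 38.7 CPM at p1 (280 wells). These wells held 49.3% and 53.8% of the *Mbp* UMIs of all *Etv1*-high wells of their age. The same measure for each of the other genes was 0.327 to 5.97 CPM at e15.5 and 0.913 to 7.79 CPM at p1. By library *Mbp* ran from 17.8 to 63.6 CPM in those wells at e15.5 and from 24.2 to 56.7 CPM at p1. Thinned to the same 5000 UMIs, 20.5% of the 258 wells and 6.25% of the 416 collagen-high *Etv1*-low wells, among them the 27 with 4 to 8 of the genes, had a UMI of *Mbp*, with unthinned medians of 109763 UMIs over all *Etv1*-high and 27212.5 over collagen-high wells. In wells with 3 to 7 of the other genes *Mbp* rose to 216 CPM at e15.5, about as high as *Ednrb* at 215 CPM, and stood at 83.2 CPM at p1. Of the genes tested against *Etv1* class, *Cnp* moved as *Mbp* did (log2 difference 1.40, adjusted p = 1.35e-06) and *Pmp22*, *Slc1a3* and *Ednra* moved the other way, with log2 differences of -2.77, -3.93 and -3.32 (adjusted p = 6.16e-07, 3.97e-07 and 1.02e-06 by edgeR). Of the 23 panel genes 16 were tested there, and 2 were higher and 6 lower in *Etv1*-high wells, against 30.5% and 33.8% of all genes.

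**Figure D4:**
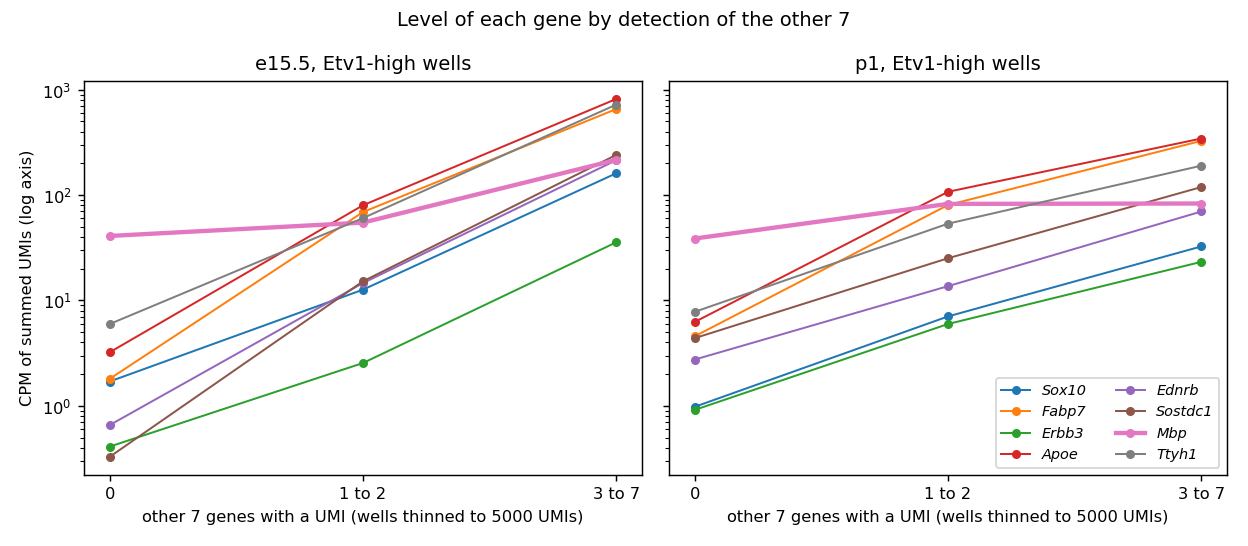
The horizontal axis is the number of the other 7 genes with a UMI in *Etv1*-high wells thinned to 5000 UMIs and the vertical axis is the CPM of the gene's summed UMIs on a log scale (left, e15.5; right, p1). *Mbp*, the thick line, starts at 40.9 and 38.7 CPM where none of the others was found, and the other 7 lines start at 0.327 to 7.79 CPM.

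Pearson's r on log counts was computed within each library over all kept wells, for the 28 pairs, as a description with no test, since the wells of a library share depth and preparation. At e15.5 the median over pairs was 0.81, with pairs from 0.58 for *Apoe* with *Mbp* to 0.88 for *Sostdc1* with *Ttyh1*, and each pair was above 0 in 10 of 10 libraries. At p1 the median was 0.41, with pairs from 0.15 for *Apoe* with *Mbp* to 0.70 for *Apoe* with *Ttyh1*. By library the median pair ran from 0.65 to 0.88 at e15.5 and from 0.28 to 0.72 at p1. The ranges of the ages overlapped.

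**Figure D5:**
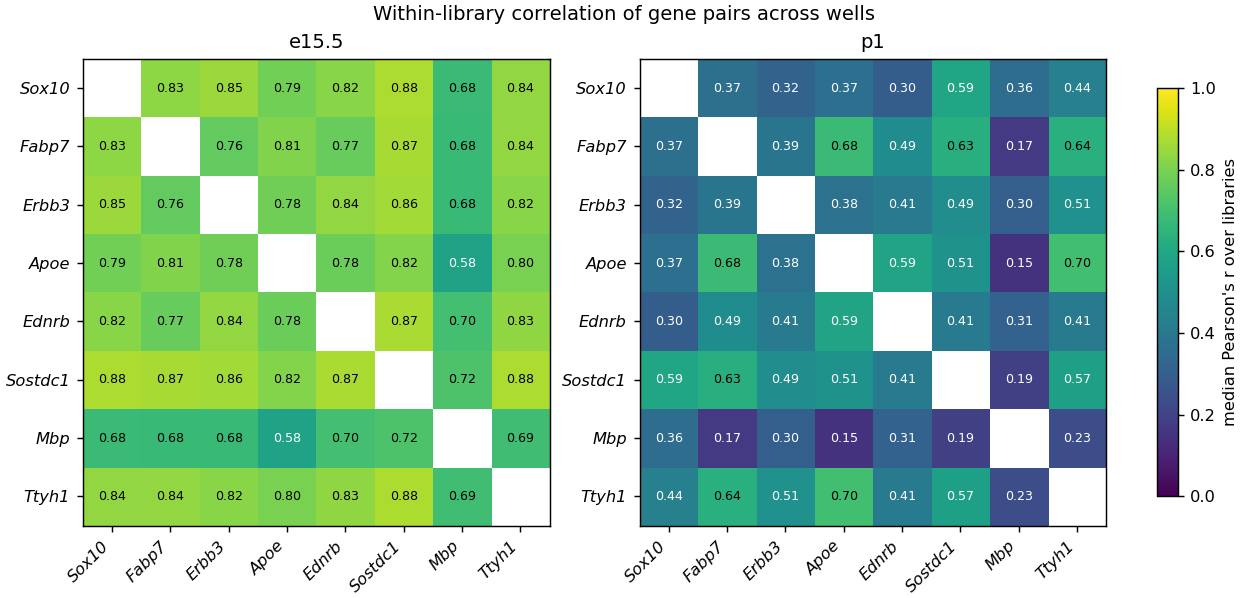
Each cell is the median over libraries of Pearson's r between 2 genes across wells of at least 5000 UMIs (left, e15.5, 10 libraries; right, p1, 6 libraries), on a colour scale from 0 to 1. The pairs of *Mbp* have a median of 0.68 at e15.5 and 0.23 at p1, against 0.83 and 0.49 for the pairs without *Mbp*.

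In *Etv1*-high wells alone the medians were 0.89 at e15.5 and 0.42 at p1, and in *Etv1*-low wells at e15.5 0.78, so the genes went together in both kinds of well. The size of the gap between the ages depended on the measure. Over all kept wells thinned to 5000 UMIs the medians were 0.69 and 0.22. Spearman's rho, which weighs the few rich wells less, gave 0.53 and 0.43 over all kept wells and 0.66 and 0.44 in *Etv1*-high wells.

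By Pearson's r over all kept wells the pairs spread more widely at p1. By Spearman's rho they did not, with 0.24 to 0.79 at e15.5 and 0.17 to 0.60 at p1. *Fabp7*, *Apoe* and *Ttyh1* had r of 0.64 to 0.70 among themselves, against 0.80 to 0.84 at e15.5, while at p1 *Sox10* with *Ednrb* was at 0.30 and *Sox10* with *Erbb3* at 0.32. The nearest genes of all those with a UMI in at least 10% of wells differed between the ages. At e15.5 *Sostdc1* was among the 3 nearest of 6 of the other 7 genes, from r = 0.72 with *Mbp* to 0.88 with *Ttyh1*, and *Apoe* was the exception. At p1 it was so only for *Sox10* (0.59). Near *Mbp* at p1 were *Gjc3*, a connexin of myelinating glia (0.58), and *Prx* (0.57). *Sfrp5*, a secreted Wnt antagonist, was among the nearest of *Fabp7* (0.71), *Apoe* (0.73) and *Ttyh1* (0.70), and *Lpar1*, a lysophosphatidic acid receptor, of *Apoe* (0.73) and *Ttyh1* (0.66). *Kcnj10*, the inward rectifier potassium channel used to mark satellite glia, was among the nearest of *Sox10* (0.56) and *Erbb3* (0.59), and *Lamb1*, a laminin chain, of *Sox10* (0.56) and *Ednrb* (0.66). Further near genes at p1 were *Mmd2* for *Fabp7*, *Ccnd1* and *Mal* for *Erbb3*, *Ccn1* for *Apoe*, *Nid1* and *Plpp3* for *Ednrb*, and *Sparc* and *Matn2* for *Sostdc1*. The values are medians over 10 e15.5 and mostly 6 p1 libraries. Some p1 values varied widely by library, as with *Gjc3* and *Mbp* (-0.20 to 0.71), *Kcnj10* and *Sox10* (-0.084 to 0.78). Others varied less, as with *Lpar1* and *Apoe* (0.68 to 0.79).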

How the data were processed

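CEL-Seq2 libraries of 96 wells were made from dorsal root ganglia at e15.5 (10 libraries) and p1 (6). The deposited values are UMI counts per gene and well, which the authors demultiplexed, mapped and counted with scruff. The submitters' processing notes name mm10 and GRCm38. Isolation is given as sorting in the labels and, for p1, as picking by hand in the study's methods. Wells under 5000 UMIs were left out. Counts were summed per library and *Etv1* class (at least 5 wells) and tested with edgeR 4.0.16 (filterByExpr, TMM, quasi-likelihood F test, p adjusted by Benjamini-Hochberg across every gene tested, called at 0.05), with DESeq2 1.42.0 as an alternative, in R 4.3.3. SEs were taken from the log2 difference and its F. The tests were tested on simulated data. Correlations used counts over library size factors, log2 with a pseudocount of 1. No doublet caller was run. Intervals cover counting error only. The genes named are the 8, *Etv1*, the 3 panel genes of smallest adjusted p per test and the 3 nearest genes per gene and age, some of which are not reported here. The 8 genes and all lists were chosen with earlier results of these data known. The 2 sums of a library share its preparation: deviations of *Etv1*-high and *Etv1*-low sums from their class means correlated at -0.06 to 0.61 within a library, over 2000 genes.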

Additional observations from a re-analysis of the deposited data

Results flagged for a closer look

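In 4 of 24 groups of libraries tested for a library far from the rest, 1 library lay beyond Dixon's critical value, and chance gives about 1 in 20 groups. *Erbb3* in *Etv1*-high e15.5 wells was 11.6 CPM in library 2, and the next library was at 7.17 CPM. *Ednrb* in *Etv1*-low e15.5 wells was 164 CPM in library 2 against 92.3 CPM in the next. *Mbp* in *Etv1*-high e15.5 wells was 113 CPM in library 3 against 77.1 CPM, and *Ttyh1* in *Etv1*-low e15.5 wells was 241 CPM in library 8 against 140 CPM.

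The wells under 5000 UMIs, which no comparison used, also held these transcripts above the level that a count of 3 would give. In 61 such e15.5 wells that limit was 27.8 CPM, and *Apoe* was at 148 CPM, *Ttyh1* at 83.4 CPM, and *Fabp7* and *Ednrb* at 37.1 CPM each. In 162 such p1 wells the limit was 12.6 CPM, and *Fabp7* was at 382 CPM (91 UMIs) and *Apoe* at 247 CPM (59 UMIs). There *Ttyh1* was at 122 CPM, *Mbp* at 46.1 CPM, *Sostdc1* at 41.9 CPM, *Erbb3* at 20.97 CPM, and *Sox10* and *Ednrb* at 16.8 CPM each.

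*Mbp* was higher in *Etv1*-high wells in 10 of 10 e15.5 libraries and higher in *Etv1*-low wells, at 580 CPM, in the 1 p1 library with enough of them. Of the UMIs behind the 580 CPM, 53 lay in 2 collagen-high wells, and the other 4 wells were at 82.6 CPM. Below the limit on wells, p1 library 2 had 0 *Mbp* UMIs in 4 *Etv1*-low wells (317858 UMIs), against 52.7 CPM in its *Etv1*-high wells. Libraries 3 and 4 were also lower in *Etv1*-low wells, and library 5 was higher on 1 UMI. This difference between the ages was not tested.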

How the results depend on the processing

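Depth limited p1 library 3, which held 293340 kept UMIs, and the *Etv1* contrast could not be compared between ages because 1 p1 library had an *Etv1*-low sum. Same-numbered libraries of the 2 ages shared only a number (r from -0.28 to 0.29, 1 of 6 best matched to its own number). With that number as a block, 5 of the 8 genes were lower at p1 in *Etv1*-high wells and 5 in all wells, against 25.8% and 28.9% of all genes, and *Erbb3* came to -0.22 and -0.035. In the *Etv1* contrast the library block turned *Apoe* to 0.031 and changed no call of the 8 genes.

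With the *Etv1* limit at 1000 CPM, 1 gene was lower at p1 and *Sostdc1* came to 0.35, while in the *Etv1* contrast 0 genes were higher and 6 lower by edgeR, with *Fabp7* at -0.74 and *Ttyh1* at -1.14. With the limit at 100 CPM the contrast gave *Sox10* 0.085, *Erbb3* 0.23 and *Apoe* 0.11. The 8 genes then summed to 718 CPM in 9 p1 *Etv1*-low wells, against 261 CPM in the 15 such wells at the limit of 300 CPM. The study's quantile filters left 1 gene lower at p1 in all wells, with *Sostdc1* at 0.064, and gave the contrast *Sox10* 0.49, *Apoe* 0.68, *Ednrb* 0.029 and *Sostdc1* 0.67. Without a filter on low counts *Erbb3* in *Etv1*-high wells came to -0.0026. With plain library totals, chosen after seeing the data, 5 genes were lower at p1 in *Etv1*-high wells, with *Erbb3* at -0.12, and *Mbp* came to -0.022 in all wells. In 2 alternatives chosen after seeing the data, collagen-high *Etv1*-low wells gave 2 genes lower and *Ttyh1* at -0.078, and collagen-low wells gave 3211 genes called, with *Sox10* 0.51, *Apoe* 1.16, *Ednrb* 0.45 and *Sostdc1* 0.83. The cause of these changes was not tested. Over single genes and all alternatives, 511 values kept direction and call, 23 passed the threshold anew, 11 no longer passed it and 29 changed sign.

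Median pair correlations at e15.5 were 0.53 by Spearman's rho, 0.69 thinned and 0.89 in *Etv1*-high wells, and 0.22 thinned at p1. The share of *Etv1*-high wells with 3 or more genes was 17.7% thinned and 22.3% at 2 UMIs or more at e15.5, and 10.8% and 18.0% at p1.

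Leaving out 1 library, 2 to 5 genes were lower at p1 in *Etv1*-high wells, and in all wells 3 to 4 were lower and 0 to 1 higher (*Mbp*, without p1 library 5). In the *Etv1* contrast 0 to 1 were lower. *Erbb3* ran from -0.12 to 0.28 and from -0.072 to 0.42 between ages, and in the contrast *Erbb3* ran from -0.21 to 0.031, *Apoe* from -0.21 to 0.047 and *Ttyh1* from -0.056 to 0.32.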
